A study of Drosophila melanogaster with 14 samples.

Results

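The genes described here are 39 Drosophila melanogaster genes of DNA replication and S phase, out of 16436 genes joined across all libraries of a testis RNA-seq series. They were chosen by name. 32 symbols of the pre-replicative complex, the replicative helicase, the fork and the nucleotide supply were listed, and every row named as a subunit of DNA polymerase alpha, delta or epsilon was added. By step, 14 genes belong to origin licensing, 7 to origin firing, 16 to the fork and 2 to nucleotide supply. All 39 passed the filter on low values, an FPKM (fragments per kilobase of transcript, scaled to library depth) of at least 1 in at least 2 libraries, as did 13087 genes in all.

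Polyadenylated RNA was sequenced from testes of 3-day-old males in 7 genotypes, 2 libraries each: mip40, comr, can and CG9879 mutants, the mip40/bam double mutant, bam mutants and wild type (wt). Each library was made from 50 testes dissected from flies kept at 23 °C, and the series calls the 2 libraries of a genotype biological replicates. Alleles are not named in the labels used here, and bam is also mutant in the mip40/bam animals. Germ cells without bam keep dividing as spermatogonia, while comr, can and mip40 mutant testes fill with primary spermatocytes that do not go on to make sperm. comr and mip40 encode parts of the testis meiotic arrest complex (tMAC), and can encodes a testis-specific TAF, a TBP-associated factor.

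Before S phase, the origin recognition complex, Cdc6 and Cdt1 load the MCM helicase on DNA, a step called licensing, which geminin blocks by binding Cdt1. Cdc45, GINS and Mcm10 then turn the loaded helicase into an active fork, where polymerases, the PCNA clamp, its loader and RPA copy DNA from deoxynucleotides that ribonucleotide reductase makes. In the fly testis, spermatogonia go through repeated S phases, each cyst completes a last, premeiotic S phase, and the primary spermatocytes then grow through a long G2.

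The tables gave FPKM with a confidence interval, from which between 3120000 and 7690000 fragments per library were implied, highest in both mip40/bam libraries. The members made up 0.046% to 0.276% of the summed FPKM. Sums of the spermatogonial and spermatid markers in bam and wt followed the labels. The 5 spermatogonial and germline markers (vas, nos, zpg, piwi, esg) summed to 1307 and 1261 FPKM in bam and to 39.9 and 38.0 FPKM in wt, where nos was listed at 0. Among them, esg was lower in bam (5.90 and 3.88 FPKM) than in wt (11.0 and 9.89 FPKM). The 5 spermatid markers (dj, Mst87F, fzo, Mst35Ba, w-cup) summed to 5.0 and 0.77 FPKM in bam and to 10922 and 9844 FPKM in wt. Their RNA was also present in comr, can and mip40 testes, at 442 to 2020 summed FPKM. These sums were therefore not read as counts of spermatids. The 6 spermatocyte markers (aly, can, sa, twe, bol, CycB) summed to 157 and 156 FPKM in bam and 946 and 942 in wt. They were not above wt in sum in mip40 (839 and 903 FPKM), comr (544 and 536) or can (897 and 917). Against wt, 4 were higher and 2 lower in mip40, 3 and 3 in comr, and 5 and 1 in can. Of the mutated genes, CG9879 had 0.76 and 1.30 FPKM in CG9879 testes and 64.0 and 53.4 FPKM in wt. mip40 had 25.8 and 27.4 FPKM in mip40/bam testes, against 59.1 and 60.4 FPKM in bam testes, but 20.8 and 20.2 FPKM in mip40 testes, against 22.8 and 20.9 FPKM in wt. comr, can and bam RNA was present at similar or higher levels in at least 1 library of their own mutants, and since a mutated gene can still be transcribed, RNA levels do not check those labels. Accessory gland transcripts, which come from outside the testis, stood at 13102, 3948, 2669 and 2591 FPKM in comr 2, CG9879 2, can 1 and wt 1, and at 4.86 to 291 FPKM in the other 10 libraries. Values without those 4 libraries are among the alternatives.

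8 of the 39 members were listed at exactly 0 FPKM in at least 1 library: Orc1, Orc2, Orc6, dup, Mcm3, Psf3, RfC38 and RPA3. All 8 share exonic bases with a neighbouring gene, and such zeros can stand for estimates that failed. The other 31 members were above 0 in every library, and their counts are given after those over all 39. RPA3, a small subunit of the single-strand binding protein RPA, was listed at 0 in 12 libraries and at 190 and 158 FPKM in mip40/bam, so it enters the counts over 39 but the size of its log2 differences was not read.

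**Figure D1:**
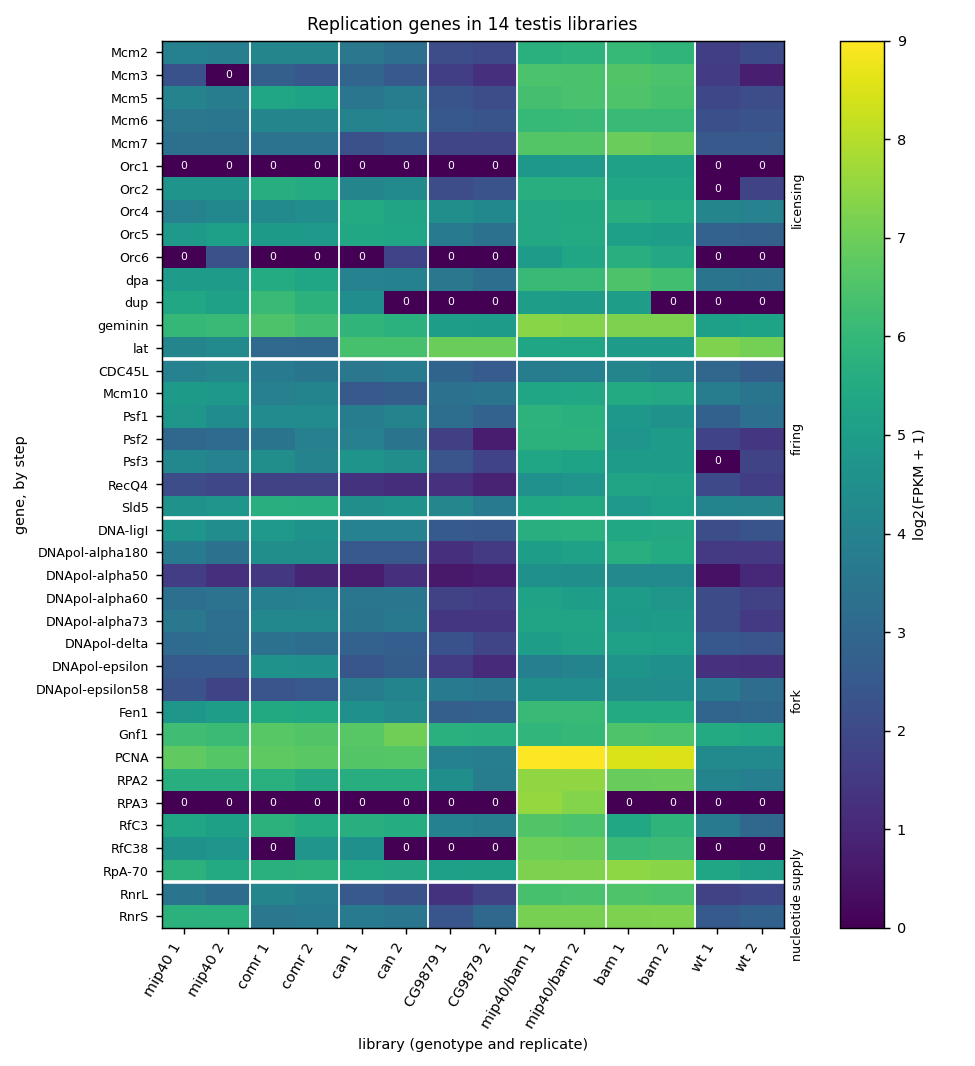
FPKM of the 39 replication genes (rows, by step) in the 14 libraries (columns, by genotype), coloured by log2(FPKM + 1), with 0 written where a gene was listed at 0. Most rows are brightest (highest) in the mip40/bam and bam columns, intermediate in mip40, comr and can, and darkest in CG9879 and wt, while lat is brightest in wt and CG9879.

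Across the 31 members above 0 in every library, 27 had their highest group mean in bam (14 genes) or in mip40/bam (13 genes), and 28 had their lowest in wt (12 genes) or in CG9879 (16 genes). The exceptions at the high end were lat (highest in wt), CDC45L (in mip40), Sld5 (in comr) and Gnf1 (in can). At the low end they were lat (lowest in comr), Mcm10 (in can) and DNApol-epsilon58 (in mip40). The map of FPKM by library shows this order, which is a description of group means in unscaled FPKM. The same count was not made over all genes. In these values the median of all genes tested was also above wt. On the log2 scale it was higher by 0.22 in bam, 0.59 in comr, 0.63 in can and 0.46 in mip40. In whole testes, fewer cells that replicate and less RNA per cell cannot be told apart. Replicates were close: the median absolute log2 difference between the 2 libraries of a genotype was 0.056 (mip40/bam) to 0.174 (mip40) over the members.

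Most licensing genes were low in wt and high wherever bam was mutant. Among the MCM helicase subunits, Mcm2 (chromosome 3R, 8264970 to 8267924 of dm6, the build of all coordinates here) had 14.5 and 13.4 FPKM in mip40, 16.6 and 16.7 in comr, 10.8 and 8.85 FPKM in can, 3.37 and 2.92 in CG9879, 51.8 and 55.4 FPKM in mip40/bam, 64.1 and 58.5 in bam, and 2.19 and 3.07 in wt. The arrest genotypes thus lay between bam and wt with no overlap on either side. dpa, which encodes Mcm4 (2R, 7496702 to 7500145), had 29.8 and 29.9 FPKM in mip40, 45.6 and 38.0 in comr, 14.9 and 14.5 FPKM in can, 11.0 and 8.50 in CG9879, 68.0 and 66.9 FPKM in mip40/bam, 89.0 and 76.2 in bam, and 10.1 and 9.31 in wt. Both can libraries were above both wt libraries, at less than the level of either mip40 library. The 6 MCM subunits had group means of 61.3 to 117 FPKM in bam and of 1.36 to 9.71 FPKM in wt.

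geminin, the inhibitor of licensing (2R, 6655463 to 6656594), had the highest wt mean among the licensing genes after lat. It had 63.2 and 66.7 FPKM in mip40, 89.4 and 74.0 in comr, 58.1 and 52.8 FPKM in can, 32.0 and 30.3 in CG9879, 167 and 161 FPKM in mip40/bam, 147.5 and 149.4 in bam, and 32.8 and 35.9 in wt. The genotypes fell into 3 levels that did not overlap: bam and mip40/bam above the arrest mutants, and these above CG9879 and wt. Orc1, the origin recognition subunit, was listed at 26.7 and 28.0 FPKM in mip40/bam and at 34.5 and 34.7 FPKM in bam, and at 0 in all other libraries. Orc6 was listed at 30.3 and 38.5 FPKM in mip40/bam and at 49.1 and 42.1 FPKM in bam, at 3.75 in 1 mip40 library and 2.49 in 1 can library, and at 0 elsewhere. dup, the Cdt1 gene, was listed at 40.0 and 34.3 FPKM in mip40, 65.8 and 54.1 in comr, 20.4 and 0 FPKM in can, 32.0 and 30.5 in mip40/bam, 32.0 and 0 in bam, and 0 in CG9879 and wt. The 2 bam libraries and the 2 can libraries disagreed. The authors' deposited table gave dup 21.7 FPKM in bam and 9.04 in wt and listed it as significantly higher.

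lat (2R, 13202728 to 13206547), which encodes the Orc3 subunit, ran opposite to the rest. It had 15.9 and 18.2 FPKM in mip40, 7.35 and 7.05 in comr, 82.4 and 82.6 FPKM in can, 125 and 126 in CG9879, 38.0 and 38.7 FPKM in mip40/bam, 30.5 and 30.5 in bam, and 151 and 136 in wt. Wild-type and CG9879 testes were highest, and comr was lowest. Every exonic base of lat is also annotated to CG34315 on the same strand, so reads of the 2 genes cannot be told apart. Orc4 and Orc5 had less contrast than the MCM genes: Orc5 had 28.6 and 33.1 FPKM in mip40, 40.5 and 38.7 in can, 33.0 and 32.2 in bam, and 6.15 and 5.77 in wt.

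Firing genes differed less between bam and wt, with a median log2 difference of 1.84 over the 7 genes, against 3.97 over the 14 licensing genes. The licensing median includes Orc1, Orc2, Orc6, dup and Mcm3, each listed at 0 in at least 1 library, with Orc1 at 5.15 and Orc6 at 5.54. The firing median includes Psf3, also listed at 0 in 1 library. Medians without these genes are not given. CDC45L, which encodes the Cdc45 helicase factor (X, 1028291 to 1030556), had 15.0 and 17.0 FPKM in mip40, 12.5 and 10.2 in comr, 10.8 and 11.8 FPKM in can, 6.40 and 5.21 in CG9879, 12.6 and 13.7 FPKM in mip40/bam, 15.9 and 13.8 in bam, and 6.92 and 5.23 in wt. Here mip40 overlapped bam, and CG9879 overlapped wt. Mcm10, which helps start the fork (2L, 21179933 to 21182812), separated the arrest mutants: it had 29.1 and 27.1 FPKM in mip40, 14.0 and 15.6 in comr, 4.68 and 5.33 FPKM in can, 44.1 and 42.7 in bam, and 12.6 and 10.2 in wt. The 3 arrest genotypes did not overlap each other, and can lay under wt. Sld5 of the GINS complex had 22.8 and 25.8 FPKM in mip40, 48.9 and 48.2 in comr, 20.6 and 23.2 FPKM in can, 28.1 and 33.0 in bam, and 15.5 and 15.3 in wt. RecQ4, a helicase needed to start replication, was at 3.34 FPKM or less in every mip40, comr, can, CG9879 and wt library, and at 22.6 to 37.5 FPKM in the 4 libraries without bam.

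PCNA, the sliding clamp (2R, 20261754 to 20262883), had the highest FPKM of all members in bam. It had 112 and 98.0 FPKM in mip40, 109 and 104 in comr, 94.3 and 97.9 FPKM in can, 14.6 and 13.4 in CG9879, 508 and 497 FPKM in mip40/bam, 362 and 363 in bam, and 18.4 and 18.3 in wt. The 6 libraries of mip40, comr and can lay close together, above wt and under bam, while both CG9879 libraries lay under wt. DNApol-epsilon, the catalytic subunit of the leading-strand polymerase (3R, 23348128 to 23355163), had 4.79 and 4.86 FPKM in mip40, 23.8 and 21.8 in comr, 4.31 and 5.28 FPKM in can, 13.9 and 15.6 in mip40/bam, 24.1 and 21.9 in bam, and 1.41 and 1.35 in wt. comr overlapped bam, while mip40 and can stood together well under it. Of the DNA polymerase alpha-primase genes, DNApol-alpha180, the catalytic subunit, had 20.8 and 20.6 FPKM in comr, 4.77 and 4.65 FPKM in can, 49.2 and 44.2 in bam, and 1.92 and 1.84 in wt. Gnf1, the large subunit of the clamp loader, varied less by genotype, with 41.0 to 130 FPKM over all 14 libraries.

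Both ribonucleotide reductase genes were among the members with the widest range. RnrL, the large subunit (2L, 10325026 to 10327943), had 10.1 and 8.11 FPKM in mip40, 16.1 and 13.7 in comr, 4.67 and 3.72 FPKM in can, 1.48 and 2.32 in CG9879, 83.3 and 84.6 FPKM in mip40/bam, 91.7 and 87.4 in bam, and 2.44 and 2.79 in wt. RnrS, the small subunit (2R, 11983145 to 11985393), had 54.4 and 52.4 FPKM in mip40, 11.0 and 11.7 in comr, 11.8 and 10.5 FPKM in can, 4.25 and 7.18 in CG9879, 141 and 142 FPKM in mip40/bam, 147.8 and 152.4 in bam, and 4.92 and 5.97 in wt. mip40 stood apart from comr and can for the small subunit, whereas for the large subunit it lay between them. The 2 genes summed to 64.6 and 60.5 FPKM in mip40, 27.1 and 25.4 in comr, 16.5 and 14.2 FPKM in can, 239.5 and 239.8 in bam, and 7.4 and 8.8 in wt.

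**Figure D2:**
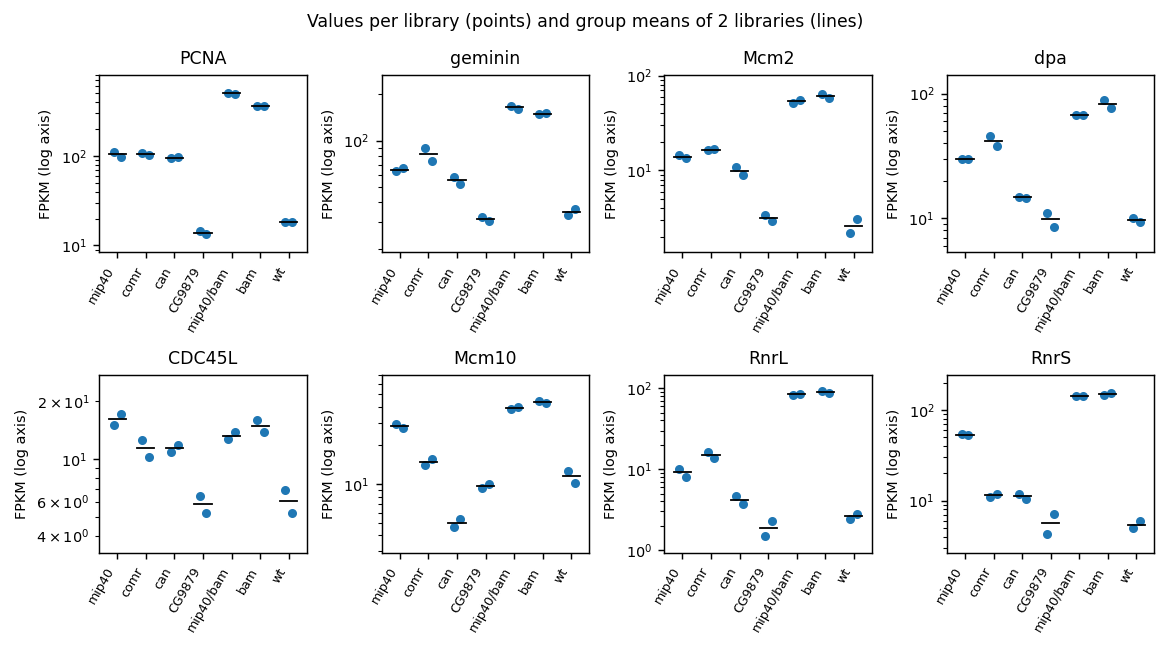
FPKM on a log axis of 8 replication genes in each library; points are libraries and lines are means of the 2 libraries of a genotype. RnrS is higher in mip40 than in comr and can, Mcm10 differs between all 3, and PCNA lies between 94.3 and 112 FPKM in the 3.

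bam testes, which hold dividing spermatogonia, were set against wild type. In bam, 36 of 39 members were higher and 1 was lower than in wt (limma on log2(FPKM + 1), adjusted p under 0.05 over all 13087 genes tested). Of all genes tested, 44.3% were higher and 34.4% lower. The member median was 3.10 on the log2 scale, against 0.22 over all genes. By step, 12 of 14 licensing genes, 7 of 7 firing genes, 15 of 16 fork genes and both supply genes were higher, and lat was lower. Among the 31 members above 0 in every library, 30 were higher and 1 was lower.

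RnrL was higher in bam by 4.65 (SE 0.17, limma adjusted p = 3.8e-09), RnrS by 4.56 (SE 0.18, 7.07e-09) and PCNA by 4.23 (SE 0.07, 2.02e-11). Mcm2 was higher by 4.11 (SE 0.14, 2.26e-09), dpa by 2.96 (SE 0.13, 1.58e-08) and geminin by 2.08 (SE 0.09, 1.9e-08). Smaller differences were those of CDC45L, 1.17 (SE 0.16, 7.44e-05), and Sld5, 0.94 (SE 0.14, 0.000173), and lat was lower by 2.20 on this scale (log2 difference -2.20, SE 0.07, 2.14e-09). dup did not pass (adjusted p = 0.179). The authors' deposited table of this comparison listed 30 of 38 members as significantly higher and 0 as lower. lat was absent from that table, which lists transcripts rather than genes, and the share over all its transcripts was not computed. That table gave values for genes that the library tables list at 0: Orc1 at 21.1 FPKM in bam and 1.02 in wt, RfC38 of the clamp loader at 35.9 in bam and 4.12 in wt, and RPA3 at 82.3 in bam and 13.3 in wt. Of the 5 spermatogonial markers, 4 were also higher in bam and esg was lower. Of 6 hub and cyst cell markers (tj, zfh1, eya, Fas3, hh, ptc), 4 were higher and 1 lower, at 112 and 134 summed FPKM in bam against 40.8 and 35.7 in wt. The part of either cell type in these differences was not tested.

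FPKM is a share of each library, and the size of these differences rests on how libraries are scaled. Median-of-ratios scaling shifted the log2 differences from wt, before the pseudocount, by -1.11 in mip40, -1.24 in comr, -1.18 in can and -1.13 in bam. With it the median log2 difference of all genes from wt was -0.24 in mip40, -0.20 in comr, -0.17 in can and -0.43 in bam, in place of 0.46, 0.59, 0.63 and 0.22. The member medians were then 0.53, 0.58, 0.24 and 2.19 in the same order. Under it, 32 members remained higher in bam and lat remained lower, while CDC45L (0.16), DNApol-epsilon58 (-0.10), Gnf1 (-0.08) and Sld5 (-0.14) no longer passed. Of all 13087 genes tested, 3794 were higher and 6027 lower in bam under this scaling.

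The question for comr, can and mip40 testes was how far these genes come down when germ cells enter the spermatocyte stage and stop there. All 3 stood between bam and wt for most members. In comr, 30 of 39 members were higher and 2 lower than in wt (48.6% and 27.9% of all genes), with a member median of 1.61 against 0.59 over all genes. In can, 28 were higher and 3 lower (51% and 20.4% of all genes), with medians of 1.28 and 0.63. In mip40, 31 were higher and 2 lower (47.8% and 25.4% of all genes), with medians of 1.43 and 0.46. Over the 31 members above 0 in every library the counts were 27 higher and 2 lower in comr, 25 and 3 in can, and 27 and 2 in mip40.

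PCNA was higher than in wt by 2.45 in mip40 (SE 0.07, limma adjusted p = 4.03e-09), 2.47 in comr (SE 0.07, 1.34e-09) and 2.32 in can (SE 0.07, 1.02e-08), and Mcm2 by 2.06, 2.29 and 1.59 in the same order (SE 0.14 each, adjusted p of 4.5e-06 or less). geminin was higher by 0.90 in mip40 (SE 0.09, 1.32e-05), 1.22 in comr (SE 0.09, 1.17e-06) and 0.67 in can (SE 0.09, 0.000113), and under median-of-ratios scaling turned to -0.18, 0.01 and -0.48. CDC45L was higher by 1.28 in mip40 (SE 0.16, 4.92e-05) and by 0.81 in both comr (SE 0.16, 0.000997) and can (SE 0.16, 0.00114), and turned to -0.29 in comr and -0.25 in can under that scaling. RnrL was higher by 1.48 in mip40 (SE 0.17, 2.48e-05), 2.13 in comr (SE 0.17, 1.44e-06) and 0.52 in can (SE 0.17, 0.018), the last turning to -0.40. Apart from these index members, the largest differences of members above 0 included Mcm5, higher in comr by 3.21 (SE 0.13, 1.64e-08), DNApol-epsilon, higher in comr by 3.32 (SE 0.16, 5.04e-08), and Orc5, higher in can by 2.54 (SE 0.12, 1.3e-07). RnrS was higher in mip40 by 3.08 (SE 0.18, 2.64e-07), in comr by 0.95 (SE 0.18, 0.000781) and in can by 0.92 (SE 0.18, 0.00109). Members that were lower than in wt were lat and DNApol-epsilon58, a small subunit of polymerase epsilon, in mip40 (-3.00 and -1.41) and in comr (-4.14 and -1.05), and Mcm10, lat and RecQ4 in can (-1.05, -0.79 and -0.60). The authors' deposited tables listed fewer of their 38 members as significantly higher: 21 in mip40, 16 in comr and 16 in can. lat had no row in them, and shares over all their transcripts were not computed. The authors' deposited tables listed as significantly lower DNApol-epsilon58, Orc4 and RecQ4 in mip40, the same genes and Mcm10 in comr, and Mcm10, Mcm7, RecQ4 and RpA-70 in can.

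How many members stood above wt in the arrest mutants depended on the scaling, and some directions flipped. Under median-of-ratios scaling 20 were higher and 7 lower in mip40, 19 and 6 in comr, and 15 and 10 in can. Of the 13087 genes tested under this scaling, 3359 were higher and 5376 lower in mip40, 3514 and 5488 in comr, and 3114 and 5083 in can. Genes higher in the limma fit on unscaled FPKM but lower under it were Gnf1, RpA-70 and Sld5 in mip40, Mcm10, Orc4 and RpA-70 in comr, and geminin, dpa, DNApol-delta, RpA-70 and Sld5 in can. Of these, the authors' deposited comparisons listed Mcm10 and Orc4 in comr and RpA-70 in can as significantly lower, opposite to the unscaled fit, and the others as not significant. PCNA remained higher under it, by 1.38 in mip40, 1.27 in comr and 1.18 in can, as did Mcm2 by 1.16, 1.27 and 0.63. RnrS remained higher in mip40 by 2.08 but not in comr (-0.15) or can (-0.13).

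**Figure D3:**
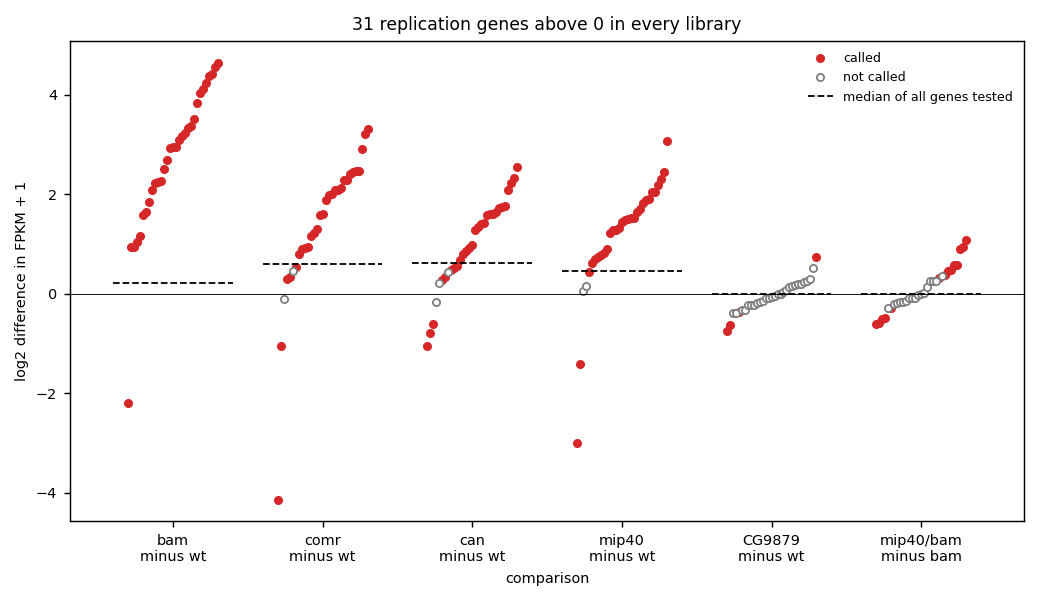
Difference in log2(FPKM + 1) (vertical axis) of the 31 members above 0 in every library in 6 comparisons (horizontal axis), sorted within each; red points passed (limma, adjusted p under 0.05), open points did not, and the dashed lines are medians of all genes tested. Most members lie above the dashed line in bam, comr, can and mip40 against wt and close to 0 in the last 2 comparisons; under median-of-ratios scaling, 3 to 5 of those higher in each of mip40, comr and can turn lower.

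Set directly against bam, most members were lower in each arrest genotype. In comr, 26 of 39 were lower and 1 higher than in bam (25.1% and 34.7% of all genes), with a member median of -1.21 against 0.10 over all genes. In can, 29 were lower and 2 higher (27.1% and 47.5% of all genes), with medians of -1.43 and 0.50. For mip40 the reference that shares its mutation is the mip40/bam double mutant. There 33 were lower and 0 higher (29.1% and 41.4% of all genes), with medians of -1.60 and 0.19. Those 2 genotypes were quantified on different annotations, so annotation and genotype cannot be told apart in that comparison. limma at an unadjusted p under 0.05 also gave 0 higher members there, and 34 lower. Of the 31 members above 0 in every library, 23 were lower and 1 higher in comr, 25 and 2 in can, and 29 and 0 in mip40. The spermatogonial list was lower as well, in 4 of 5 genes in comr, 5 of 5 in can and 4 of 5 in mip40, and the 5 spermatid markers were higher in each. Of the 6 hub and cyst markers, 5 were lower in comr, 4 in can and 4 in mip40. Of 7 muscle markers, 6 were higher in comr and 4 in can, while all 7 were lower in mip40 than in mip40/bam (75.2 and 146 against 438 and 406 summed FPKM). The part of these cells in the members' differences was not tested.

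Mcm7 was lower in can by 4.54 (log2 difference -4.54, SE 0.09, limma adjusted p = 8e-11) and in mip40 relative to mip40/bam by 3.29 (log2 difference -3.29, SE 0.09, 7.28e-10). An antisense gene covers 81.7% of the exonic bases of Mcm7, and strand use in the counting is not given in the sources used here. RnrS was lower than in bam by a like amount in comr (-3.61) and in can (-3.64), and was lower in mip40 relative to mip40/bam (-1.39, SE 0.18, 6.83e-05). PCNA differed by -1.76 in comr (SE 0.07, 1.72e-08), by -1.91 in can and by -2.25 in mip40 (SE 0.07, 2.05e-09). Members higher than in bam were Sld5 in comr, by 0.66 (SE 0.14, 0.00276), and Gnf1 and lat in can, by 0.37 (SE 0.11, 0.0149) and 1.41 (SE 0.07, 7.79e-08). Under quantile normalization neither Sld5 (0.21, adjusted p = 0.28) nor Gnf1 (-0.31, 0.0591) passed. DNApol-epsilon (-0.01) and Fen1, the flap endonuclease (-0.07), did not pass in comr, nor did CDC45L in comr (-0.36, adjusted p = 0.0761), in can (-0.36, 0.062) or in mip40 relative to mip40/bam (0.26, 0.167).

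As a share of the bam mean, the 31 members had a median of 33.4% in mip40, 42.6% in comr, 35.6% in can, 11.1% in CG9879, 99.6% in mip40/bam and 11.8% in wt. At 50% or more of bam were 10 members in mip40, 13 in comr, 9 in can and 3 each in CG9879 and wt. The lowest shares were those of Mcm7, 7.7% in mip40 and 3.5% in can, and RecQ4, 6.5% in comr. The highest were CDC45L in mip40 (108%), Sld5 in comr (158.8%) and lat in can (270.6%). Among the 3 arrest genotypes, comr had the highest mean for 19 members, mip40 for 7 and can for 5, and the lowest mean was in can for 20, mip40 for 8 and comr for 3. These shares and counts are of unscaled FPKM and were not computed over all genes. Median-of-ratios scaling shifts the log2 difference by -1.13 between bam and wt. The shift is -0.11 between comr and bam and -0.05 between can and bam, so the wt shares depend more on the scaling.

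**Figure D4:**
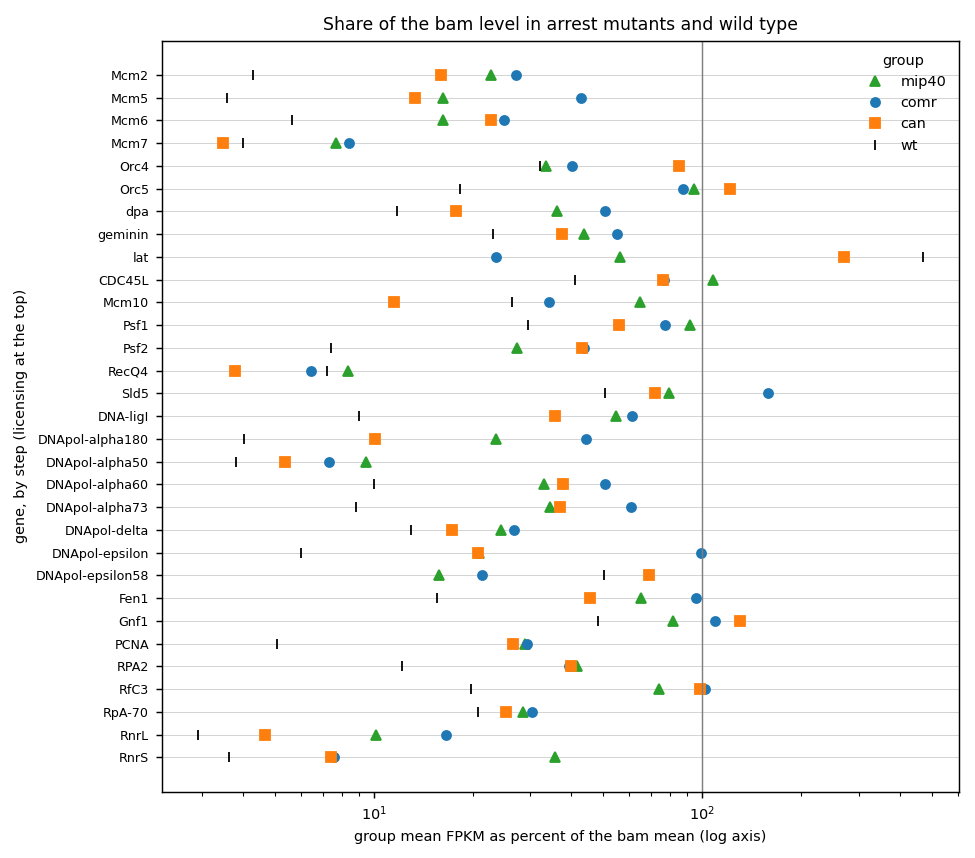
Mean FPKM (2 libraries each) in mip40, comr, can and wt of the 31 members above 0 in every library, as a percentage of the bam mean on a log axis with a line at 100; a later symbol covers an earlier one where they coincide. Mcm10 and RnrS are highest in mip40, DNApol-epsilon, Mcm5 and Sld5 in comr, and lat, though under wt, is far above the other two arrest mutants in can. The percentages are of unscaled FPKM, and those of wt depend on the scaling.

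The arrest genotypes were then compared with each other, since the products of mip40 and comr belong to 1 complex and can to another. Between mip40 and comr, 4 of 39 members were higher in mip40 and 12 lower (22.6% and 23% of all genes). Between mip40 and can, 13 were higher in mip40 and 6 lower (19.2% and 32.4% of all genes). Between comr and can, 17 were higher in comr and 4 lower (22.7% and 32% of all genes). The member medians were -0.24, 0.22 and 0.26 in these comparisons, against -0.01, -0.16 and -0.02 over all genes. Of the 31 members above 0 in every library the counts were 4 and 12, 13 and 6, and 16 and 4. All 7 muscle markers were lower in mip40 than in comr and than in can (75.2 and 146 summed FPKM in mip40, 297 and 413 in comr, 421 and 258 in can), and their part was not tested.

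RnrS was higher in mip40 than in comr by 2.14 (SE 0.18, limma adjusted p = 1.08e-05) and than in can by 2.17 (SE 0.18, 1.07e-05), and did not pass between comr and can (0.03, 0.935). Mcm10 was higher in mip40 than in comr by 0.88 (SE 0.11, 0.000158) and than in can by 2.28 (SE 0.11, 3.03e-07). For comr, the genes that stood out were DNApol-epsilon, higher than in can by 2.04 (SE 0.16, 4.14e-06) and lower in mip40 than in comr by 2.03 (log2 difference -2.03, SE 0.16, 7.67e-06), DNApol-alpha180, higher than in can by 1.93 (SE 0.14, 2.69e-06), and Mcm5, lower in mip40 than in comr by 1.33 (log2 difference -1.33, SE 0.13, 3.48e-05). dpa was higher in comr than in can by 1.44 (1.02e-05) and RnrL by 1.61 (2.86e-05). Higher in can than in the other two were lat, DNApol-epsilon58, Orc4 and Orc5. In mip40 relative to can they were at -2.21 (2.68e-08), -1.85 (SE 0.20, 6.15e-05), -1.29 (3.22e-05) and -0.36 (0.0365), and in comr relative to can at -3.35 (7.3e-10), -1.49, -1.04 and -0.46 (0.0105). PCNA did not pass in any of the 3 comparisons (-0.02, 0.12 and 0.14, with adjusted p of 0.892, 0.163 and 0.109). The authors' deposited tables gave RnrS 45.2 FPKM in mip40 and 7.62 in wt, 8.22 in comr and 7.99 in wt, and 7.96 in can and 7.81 in wt.

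CG9879 testes, set against wild type, showed few differences in these genes. 1 of 39 members was higher and 3 were lower (4.28% and 7.24% of all genes), and the medians of the members and of all genes were both 0. All 4 were among the 31 members above 0 in every library. Orc5 was higher by 0.74 (SE 0.12, limma adjusted p = 0.00489), and PCNA (-0.37, SE 0.07, 0.00809), Mcm7 (-0.63, SE 0.09, 0.00175) and RecQ4 (-0.76, SE 0.17, 0.0218) were lower. geminin (-0.14, adjusted p = 0.424), Mcm2 (0.20, 0.426) and RnrL (-0.33, 0.259) did not pass. The authors' deposited table listed 0 of 38 members as significant in either direction. In a limma fit on these 4 libraries alone, 0 members passed either way, and 2 were higher and 3 lower at an unadjusted p under 0.05. The CG9879 libraries were quantified on another gene annotation than wt, so annotation and genotype cannot be told apart.

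mip40/bam testes were set against bam testes, which asks what loss of mip40 does before the spermatocyte stage. 10 of 39 members were higher and 6 lower (16.4% and 19.7% of all genes), with a member median of 0.01 against 0 over all genes. Of the 31 members above 0 in every library, 9 were higher and 5 lower. PCNA was higher by 0.47 (SE 0.07, limma adjusted p = 0.000614) and the GINS genes Psf1 and Psf2 by 1.07 (SE 0.21, 0.00346) and 0.94 (SE 0.31, 0.0419). DNApol-epsilon (-0.61, SE 0.16, 0.0153), RecQ4 (-0.59, SE 0.17, 0.0232), Gnf1 (-0.51, SE 0.11, 0.00629), DNApol-alpha180 (-0.49, SE 0.14, 0.0246), Mcm7 (-0.28, SE 0.09, 0.0315) and Orc1 (-0.33, SE 0.10, 0.0323) were lower. geminin (0.14, adjusted p = 0.317), Mcm2 (-0.19, 0.363) and dpa (-0.28, 0.124) did not pass. The authors' deposited table listed 9 members as significantly higher and 4 as lower, the 4 being DNApol-alpha180, DNApol-epsilon, Gnf1 and RecQ4.

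These differences moved with transcript length. Over 31 members the log2 difference had a Spearman correlation of -0.78 with exonic length, and over 5781 well-expressed genes one of -0.71. Both are correlations across genes, which share the same 4 libraries. Members higher in mip40/bam had 692 to 3315 exonic bases (median 1070), those lower had 2451 to 6849 (median 4624), and those that did not pass had 1061 to 3440 (median 2214). Over all genes the median difference was 0.59 for transcripts up to 1000 bases and -0.84 for those over 5000. The length trend was then removed, an alternative chosen after seeing the data. With it removed, DNA-ligI, DNApol-delta, Fen1, Mcm6, lat and RPA3 were higher and geminin lower, 6 of 39 members against 1. Of all 13062 genes tested in that fit, 2004 were higher and 1325 lower. RPA3 was listed at 0 in both bam libraries. The 9 genes named above as differing did not pass, among them PCNA (0.02), DNApol-epsilon (0.34) and RecQ4 (0.16). The 2 genotypes were also quantified on different annotations, so annotation and genotype cannot be told apart here, and the 7 muscle markers were all higher in mip40/bam, at 438 and 406 summed FPKM against 112 and 157 in bam. The part of length, annotation and muscle RNA was not tested.

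**Figure D5:**
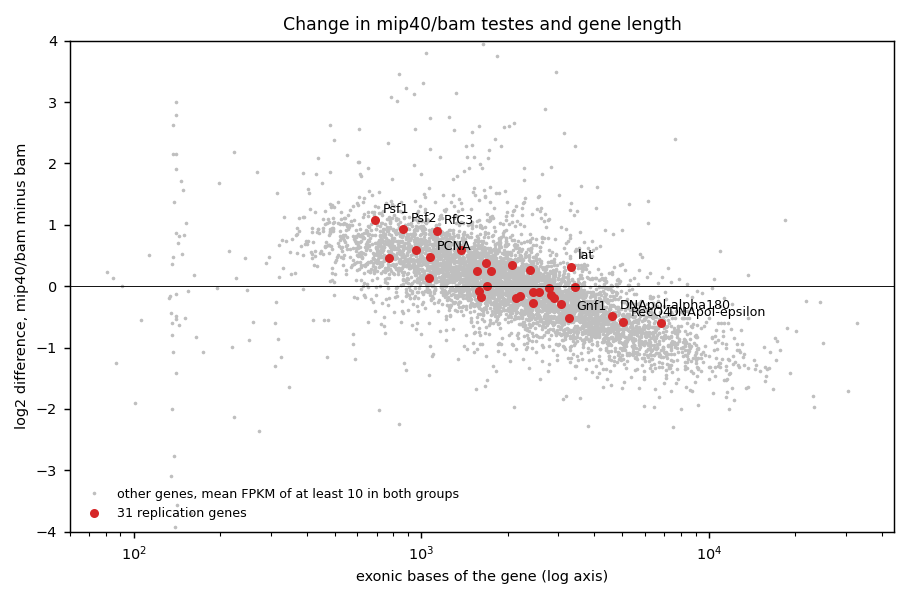
Difference in log2(FPKM + 1) between mip40/bam and bam (vertical axis) against exonic bases (log axis), for the 31 members above 0 in every library (red, some named) and for all other genes whose mean FPKM was 10 or more in both genotypes (grey); genes beyond 4 in either direction are not drawn. The points slope down, from Psf1 at 692 bases and 1.07 to DNApol-epsilon at 6849 bases and -0.61.

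Loss of mip40 thus went with different values in the 2 backgrounds. The 5 spermatid markers summed to 1654 and 2020 FPKM in mip40 and to 10922 and 9844 FPKM in wt. In mip40/bam they summed to 20.2 and 18.5 FPKM, and in bam to 5.0 and 0.77 FPKM. The part of cell types and of annotation in the values below was not tested. The difference between mip40/bam and bam, less that between mip40 and wt, passed below 0 for 26 of 39 members and above 0 for 3 (44.1% and 25.9% of all genes), with a member median of -1.29 against -0.49 over all genes. Of the 31 members above 0 in every library, 24 passed below 0 and 2 above. RnrS had the value -3.16 (SE 0.25, limma adjusted p = 3.16e-06), since RnrS was higher in mip40 than in wt by 3.08 and did not pass between mip40/bam and bam (-0.08). Under median-of-ratios scaling the member median was -0.28, against 0.35 over all genes, and 11 passed below 0 and 7 above, geminin, Orc4, RpA-70 and Sld5 among those above. Of all 13087 genes tested, 2976 passed below 0 and 5276 above under this scaling.

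The wider list of S phase genes, regulators and chromatin or nucleotide factors outside the 39, held 36 genes that were tested. Of these, 29 were higher and 3 lower in mip40 than in wt (47.8% and 25.4% of all genes), 30 and 3 in comr (48.6% and 27.9%), 23 and 3 in can (51% and 20.4%), and 31 and 2 in bam (44.3% and 34.4%). Between mip40 and can, 18 were higher in mip40 and 4 lower (19.2% and 32.4% of all genes). Ts, thymidylate synthase, had 33.0 and 33.5 FPKM in mip40, 117 and 97.4 FPKM in mip40/bam and 70.5 and 68.0 in bam, and was listed at 0 in comr, can, CG9879 and wt. As for the members, such zeros can stand for estimates that failed, so the levels of Ts in comr and can are not known from the library tables. Cdc6, the licensing ATPase, had 12.1 and 13.3 FPKM in mip40, 6.59 and 6.43 in comr, 1.18 and 1.54 FPKM in can, and 1.12 and 1.41 in wt, and was higher in mip40 than in can by 2.54. CycE, the S phase cyclin, had 2.20 and 2.26 FPKM in mip40, 2.72 and 2.01 in comr, 3.92 and 2.88 FPKM in can, 77.9 and 70.1 in bam, and 14.8 and 14.7 in wt. It was lower than in wt in all 3 arrest genotypes (-2.28, -2.23 and -1.85), unlike most of the 39 members.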

How the data were processed

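Gene-level FPKM values were deposited by the authors, estimated with TopHat, Cufflinks and Cuffdiff, per the submitters' processing notes, which name the builds dm3 and dm6; no source used here gives versions or strand use. Coordinates are those of the deposited FPKM tables. The deposited tables also hold the authors' p-values and q-values. 10 tables used 1 annotation (16745 genes) and the 4 of CG9879 and mip40/bam another (17480 genes); 16084 genes were joined by symbol and 358 by position, and 6 failed estimates were dropped.

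Here log2(FPKM + 1) was fitted with limma 3.58.1 (R 4.3.3; empirical Bayes with a mean trend) over all 14 libraries in 7 groups, and p-values were adjusted over 13087 genes by the Benjamini-Hochberg method. With 2 libraries a group, a log2 difference rests on 7 residual degrees of freedom shared by all groups. Depth was implied from the confidence intervals. Tables and figures used Python 3.11.15, pandas 2.3.3, numpy 2.4.6 and matplotlib 3.10.9. The fit was tested on simulated data.

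The members and all lists were chosen with earlier results of these data known. Values were printed for 10 index members, for the 2 largest and 2 smallest differences of a comparison, and for members called against the majority; other named genes were chosen after their values were seen. Alternatives were other scalings, pseudocounts, filters, a fit on the groups compared, leaving out each library or the 4 with accessory gland RNA, and a replicate block.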

Additional observations from a re-analysis of the deposited data

Results flagged for a closer look

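Of the members named for the difference of mip40 effects, the 10 above 0 in every library all passed the interaction term of the limma fit. The term is mip40/bam minus bam, less mip40 minus wt, on the log2 scale. Over all genes tested, 44.1% passed it below 0 and 25.9% above. Of the 10, lat, DNApol-alpha180 and DNApol-epsilon58 were named because their values for it were extreme. The term was -3.16 for RnrS (SE 0.25, adjusted p = 3.16e-06), -2.54 for DNApol-alpha180 (SE 0.20, 3.21e-06), -2.25 for Mcm2 (SE 0.19, 5.42e-06), -1.98 for PCNA (SE 0.10, 1.84e-07) and -1.81 for dpa (SE 0.18, 1.52e-05). It was -1.57 for RnrL (SE 0.23, 0.000233), -1.43 for CDC45L (SE 0.22, 0.000303) and -0.76 for geminin (SE 0.13, 0.000585). It was 3.32 for lat (SE 0.10, 1.42e-08) and 1.42 for DNApol-epsilon58 (SE 0.28, 0.00146), both lower in mip40 than in wt. The 8 genes with negative terms were all higher in mip40 than in wt, by 0.90 (geminin) to 3.08 (RnrS). Under median-of-ratios scaling the terms were -2.12 for RnrS, -1.65 for DNApol-alpha180, -1.30 for Mcm2, -0.86 for PCNA and -0.73 for dpa, all past the threshold. CDC45L (-0.40, adjusted p = 0.155) and RnrL (-0.64, 0.061) no longer passed under it, geminin turned to 0.37 (0.0457), and lat and DNApol-epsilon58 stood at 4.45 and 2.44. The interaction spans libraries quantified on 2 annotations, and genotypes whose spermatid marker levels differ. The part of annotation and of cell types was not tested.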

How the results depend on the processing

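In bam against wt, 32 to 37 of 39 members were higher and 1 was lower under every alternative run on all 39, the 32 under median-of-ratios scaling. Scaling mattered most. Against wt, median-of-ratios scaling gave 19 higher and 6 lower members in comr, 15 and 10 in can, and 20 and 7 in mip40; it gave 3 lower in mip40/bam against bam, and 7 above and 11 below 0 for the difference of mip40 effects. Quantile normalization gave 18 higher and 5 lower in can against wt, 3 lower in mip40/bam against bam, and 0 (0 at an unadjusted p under 0.05) and 1 higher in comr and can against bam. Equal summed FPKM gave 1 higher and 14 lower in mip40/bam against bam, 2 higher in comr against bam, 4 higher in mip40 against mip40/bam and 7 lower in mip40 against comr. The all-gene median was -0.24 in place of 0.50 under quantile normalization in can against bam, and 0.72 in place of 0.19 under equal sums in mip40 against mip40/bam. Of all 13087 genes, 4710 were higher and 3339 lower in can against wt under quantile normalization. Equal sums gave 860 higher and 3902 lower in mip40/bam against bam. All-gene counts under median-of-ratios scaling against wt and for the difference of mip40 effects are given above. Fits on the groups compared alone gave 0 higher and 0 lower in CG9879 against wt, 2 higher in comr against bam, 7 lower in mip40 against comr and 7 higher in mip40 against can. Without the 4 accessory gland libraries, 3 were higher in CG9879, 2 in comr against bam and 1 in mip40 against mip40/bam. A pseudocount of 0.1 gave 2 lower in mip40/bam against bam. Removing the length trend, an alternative chosen after seeing the data, gave 6 higher and 1 lower there (2004 and 1325 of 13062 genes) and 2 higher in comr against bam. The causes were not tested.

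Leaving out 1 library at a time gave 1 to 3 higher and 2 to 4 lower in CG9879 (2 higher without CG9879 2 or wt 1, 3 without wt 2), and 5 to 7 higher and 1 to 3 lower in mip40/bam against bam (6 and 1 without bam 1, 7 and 3 without bam 2, 5 and 1 without mip40/bam 1, 6 and 2 without mip40/bam 2). It gave 1 to 2 higher in comr against bam (2 without bam 1) and in can against bam (1 without bam 2 or can 2).

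Directions turned as follows, in log2 differences. Under median-of-ratios scaling these were Sld5 in bam (-0.14), CDC45L and RnrS in comr (-0.29 and -0.15), geminin, dpa, CDC45L, RnrL and RnrS in can (-0.48, -0.54, -0.25, -0.40 and -0.13) and geminin in mip40 (-0.18), all against wt. The same scaling turned PCNA in mip40 against comr (0.11), CDC45L and RnrS in comr against can (-0.049 and -0.022) and geminin in the difference of mip40 effects (0.37). Quantile normalization turned dpa in can (-0.29) and CDC45L in CG9879 (0.032) against wt, geminin in mip40/bam against bam (-0.093), Gnf1 in comr, can and mip40 against bam or mip40/bam (-0.49, -0.31 and -0.27), CDC45L in mip40 against mip40/bam (-0.23) and PCNA in mip40 against comr (0.086). Equal sums turned dpa in CG9879 (-0.022), geminin in mip40/bam (-0.28), PCNA in mip40 against comr (0.20), and CDC45L and RnrS in comr against can (-0.081 and -0.053); a pseudocount of 0.1 turned dpa in CG9879 (-0.0008). Without the length trend, geminin (-0.32), Mcm2 (0.13), dpa (0.082), RnrL (0.13), DNApol-epsilon (0.34), RecQ4 (0.16) and DNApol-alpha180 (0.21) turned in mip40/bam against bam, as did PCNA in mip40 against comr (0.018) and CDC45L in comr against can (-0.065). Without the accessory gland libraries CDC45L (0.25) and RnrS (-0.41) turned in CG9879. Leaving out 1 library gave -0.17 to 0.17 for dpa, -0.22 to 0.12 for CDC45L and -0.29 to 0.35 for RnrS in CG9879, -0.11 to 0.076 for PCNA in mip40 against comr, and -0.13 to 0.14 for CDC45L and -0.052 to 0.11 for RnrS in comr against can.

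Whether replicate numbers pair the libraries cannot be decided here, since each comparison has only 2 pairs. Same-numbered libraries had correlations of -0.478 to 0.368, and pairing was left out of the main fit. With the replicate block, 36 members were higher in bam, 30 in comr, 28 in can and 30 in mip40 than in wt. No call changed among named members above 0 in every library, and named members listed at 0 somewhere were not checked. Crossed pairing gave 2 higher in CG9879 against wt. Members such as DNApol-alpha50 rest on 2 to 12 implied fragments in wt and arrest libraries, so small differences there were not detectable at this depth.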
